A study of Mus musculus with 6 samples.

Results

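The GIMAP genes (GTPases of immunity-associated proteins) were followed in thymic natural killer (NK) cells with and without Tcf7. The members are the 8 mouse genes Gimap1, Gimap3, Gimap4, Gimap5, Gimap6, Gimap7, Gimap8 and Gimap9, found by their Entrez gene IDs (16205, 83408, 107526, 317757, 231931, 231932, 243374 and 317758) among the 26332 genes of the deposited count table. All 8 passed the filter on low counts, which left 13652 genes for testing. RNA was sequenced from 2 Tcf7 knockout (KO) and 4 wild-type (WT) libraries, each from a single C57BL/6 mouse, so that every library is a separate animal. KO 1, WT 1 and WT 3 came from males, and KO 2, WT 2 and WT 4 from females. Cells carrying NK1.1 and NKp46 were sorted, without TCRbeta, CD3 or CD8 and not stained by the CD1d tetramer, and nothing in the labels mentions a treatment. The sources used here give neither the knockout allele nor the ages of the mice. With 1 KO mouse of each sex, a sex difference within the KO group and a difference between these 2 animals cannot be told apart.

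GIMAP proteins are GTP-binding proteins related in fold to the septins. They sit on membranes inside lymphocytes or in the cytosol and are known for controlling the survival and death of developing and resting T, B and NK cells. The product of Tcf7, TCF-1, is a TCF/LEF transcription factor that acts in early T cells and innate lymphoid cells.

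Total counts lay between 16418910 and 31155303 per library, and 14241 to 15861 genes had at least 1 count. A floor of 3 counts equals a CPM (count scaled to the library's total) of 0.0963 to 0.183, far below every member's level, and the members' own counts ran from 964 to 29814. Tcf7 was lower in both KO libraries, with 268 and 452 CPM in KO 1 and KO 2, against 811 to 947 CPM in the WT libraries (log2 fold change -1.35, SE 0.17, adjusted p = 0.00294 by edgeR's quasi-likelihood test with Benjamini-Hochberg adjustment over all tested genes). Transcript thus remained in the KO libraries, and these gene-level counts do not show which exons it came from. The NK markers of the sort were present in all 6 libraries: Ncr1, the gene of NKp46, had 983 and 739.8 CPM in KO and 820.5 to 1037 CPM in WT, and Klrb1c, the gene of NK1.1, had 1270 and 1084 CPM in KO and 1555 to 1705 CPM in WT. WT 3 and WT 4 stood apart from WT 1 and WT 2 in the myeloid gene Lyz2, with 6.48 and 14.7 CPM against 0.0405 and 0.33 CPM, and the call that rests on them is given below with and without them. Levels throughout are CPM scaled by the trimmed mean of M-values (TMM), and log2 fold changes give KO minus WT, with sex as an additive term.

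The 8 genes form 1 cluster of 123666 bases on mouse chromosome 6 (GRCm38.p6, the build mm10). In chromosomal order they are Gimap8 (48647186 to 48660875, plus strand), Gimap9 (48676121 to 48679116, plus), Gimap4 (48684578 to 48692062, plus), Gimap6 (48701583 to 48708244, minus), Gimap7 (48718621 to 48724636, plus), Gimap1 (48739047 to 48743795, plus), Gimap5 (48746197 to 48754200, plus) and Gimap3 (48764464 to 48770851, minus). Gimap5 and Gimap3 are neighbours on opposite strands and the most alike in sequence of the 28 pairs of members. Their coding sequences are 924 bases for Gimap5 and 903 bases for Gimap3, 88.9% identical over 899 aligned bases, with a longest identical run of 140 bases. The run lies in the stretch shown here, from coding bases 145 to 344 of Gimap3 and 157 to 356 of Gimap5 (GENCODE transcripts of GRCm38). The capitals mark the 4 positions at which the 2 genes differ, and the stretch is shown because sequencing reads that fall inside the identical run cannot be assigned to either gene by sequence.
Gimap3: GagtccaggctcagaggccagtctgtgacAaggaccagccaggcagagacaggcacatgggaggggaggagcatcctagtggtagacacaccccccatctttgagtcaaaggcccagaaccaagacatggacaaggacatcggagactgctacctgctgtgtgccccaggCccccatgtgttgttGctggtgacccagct
Gimap5: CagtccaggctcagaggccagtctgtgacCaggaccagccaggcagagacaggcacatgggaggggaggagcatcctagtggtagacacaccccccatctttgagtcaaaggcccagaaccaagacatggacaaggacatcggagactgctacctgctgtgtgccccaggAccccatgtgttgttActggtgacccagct

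Of all 50-base words in the transcripts of the pair, 190 were shared, which is 9.90% of the words of Gimap3 and 9.98% of those of Gimap5. The other 27 pairs shared none, and their longest identical run was 17 bases. The sources used here do not say how reads with more than 1 match were counted, so the division of reads between Gimap3 and Gimap5 is uncertain. The share of words is not a share of reads, and the size of this uncertainty is not known. Gimap1 carries another uncertainty, because the library kit does not mark strand. Of its 3073 annotated exon bases, 1107 (36.0%) overlap exons of the antisense gene Gimap1os, and reads from the 2 strands cannot be told apart there. A read-through gene, Gm28053, shares 6.44% of the exon bases of Gimap1, 3.69% of those of Gimap5 and 3.48% of those of Gimap7.

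The promoters of the same pair are shown because their genes gave the highest and the lowest fold change of the family. Each is the 250 bases before the RefSeq start site in GRCm38.p6, read 5′ to 3′ on the gene's strand: chr6:48770852-48771101 on the minus strand for Gimap3 and chr6:48745947-48746196 on the plus strand for Gimap5. The capitals mark the ETS letters GGAAGT.
Gimap3: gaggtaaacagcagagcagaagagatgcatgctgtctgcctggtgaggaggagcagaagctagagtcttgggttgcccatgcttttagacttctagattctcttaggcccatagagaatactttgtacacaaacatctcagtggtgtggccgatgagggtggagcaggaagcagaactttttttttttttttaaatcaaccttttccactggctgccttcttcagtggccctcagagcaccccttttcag
Gimap5: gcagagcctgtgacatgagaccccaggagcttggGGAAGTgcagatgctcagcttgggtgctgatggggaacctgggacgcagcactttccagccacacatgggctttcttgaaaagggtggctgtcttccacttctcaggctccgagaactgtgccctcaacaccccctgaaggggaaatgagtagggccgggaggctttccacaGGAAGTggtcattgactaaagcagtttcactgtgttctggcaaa

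All 8 members matched the RefSeq promoter table, with 9 windows because Gimap8 has 2 start sites. Each window held the 250 bases before the start and 50 bases from it, and both strands were searched for exact letters. The TCF/LEF letters CTTTGAA or CTTTGAT were found in 1 of the 9 windows, that of Gimap7 (CTTTGAA, 42 bases into the transcript), against 8.65% of all 32851 windows. The RUNX letters TGTGGT were found in 3 windows (Gimap4, Gimap7 and Gimap1), against 16.8% of all. The ETS letters GGAAGT were found in 4 (Gimap9, Gimap6, Gimap1 and Gimap5), against 23.8% of all. The windows of Gimap3 and Gimap8 held none of these letters. No match overlapped another, and a match is a description of the sequence, not a binding site.

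All members were well expressed in thymic NK cells of both genotypes. Divided by gene length as deposited, their levels in WT libraries exceeded those of 83.8% (Gimap7) to 99.4% (Gimap4) of the tested genes. In KO libraries Gimap4 averaged 489 ± 204 CPM per kilobase, Gimap3 312 ± 79.5, Gimap6 278 ± 93.7, Gimap1 155 ± 11.8, Gimap8 124 ± 33.6, Gimap9 93.0 ± 24.9, Gimap5 65.7 ± 12.9 and Gimap7 46.6 ± 23.0 (SD, n = 2). In WT libraries Gimap4 averaged 532 ± 30.3 CPM per kilobase, Gimap6 338 ± 41.8, Gimap3 208 ± 17.3, Gimap1 170.2 ± 12.2, Gimap8 107 ± 18.9, Gimap9 96.9 ± 5.32, Gimap5 83.2 ± 9.60 and Gimap7 40.5 ± 4.03 (SD, n = 4). Gimap4 was the highest, Gimap1 the fourth and Gimap7 the lowest per kilobase in each of the 6 libraries. Gimap8, Gimap9 and Gimap5 filled the places between Gimap1 and Gimap7, and the order of Gimap8 and Gimap9, and of Gimap9 and Gimap5, differed among WT libraries, so neither of these pairs of neighbours differed beyond its spread. Gimap8 stood above Gimap5 per kilobase in all 6 libraries. Gimap3 and Gimap6 exchanged places with genotype: Gimap3 stood above Gimap6 in both KO libraries and below it in all 4 WT libraries.

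**Figure D1:**
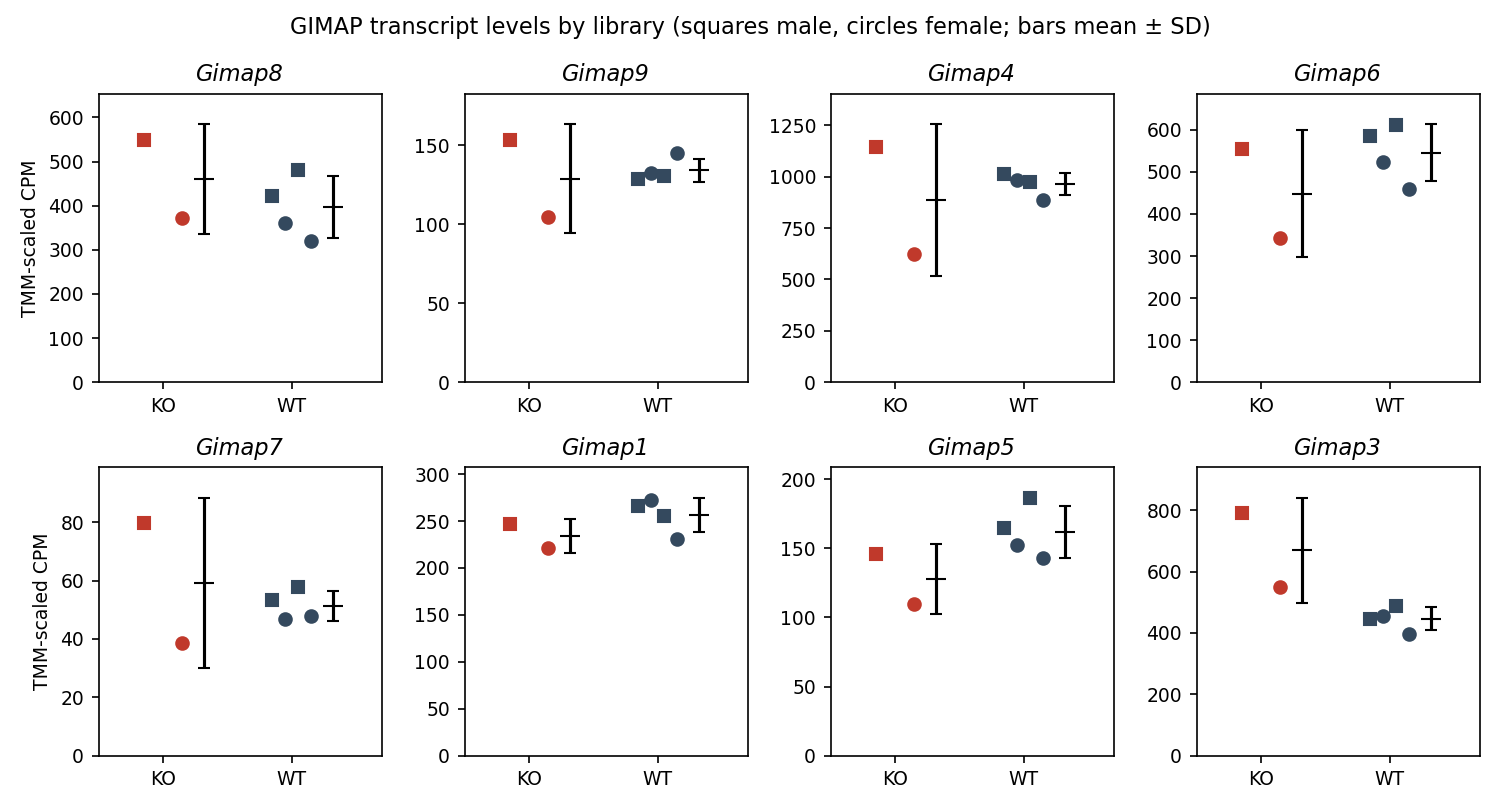
TMM-scaled CPM of each GIMAP gene (vertical axis, starting at 0) in the 2 KO libraries (red) and the 4 WT libraries (dark blue), in chromosomal order, with squares for males, circles for females and bars for mean ± SD. Gimap3 is the gene with both KO points above all 4 WT points, and the male KO point lies above the female KO point in all 8 panels.

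The family as a whole did not move in 1 direction with the loss of Tcf7. The 8 genes together held 3664 and 2359.6 CPM in KO 1 and KO 2, against 3079.7, 2926, 3183 and 2631 CPM in WT 1 to WT 4, so that 1 KO library lay above and the other below the whole WT range. In bulk RNA of sorted cells, fewer cells of a type and less RNA per cell cannot be told apart. Of the 8 members, 1 was called higher in KO, none lower, and 7 did not pass the test at an adjusted p under 0.05 (edgeR's quasi-likelihood test, Benjamini-Hochberg). Over all tested genes 13.7% were called, 8.13% higher and 5.58% lower. Without adjustment 3 members had p under 0.05, of which 2 were lower in KO, and DESeq2 and limma voom each called 1 of them lower. The share of all tested genes with an unadjusted p under 0.05 was not computed. The median log2 fold change of the members was -0.10, beside 0.02 for all tested genes, with 3 members above 0 and 5 below, of which Gimap9 turned to 0.011 when counts were scaled by library size alone.

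Gimap3, which in mice acts beside Gimap5 in T cell survival and also affects how mitochondrial DNA variants segregate, was the member called. It had 789.8 and 549 CPM in KO 1 and KO 2, against 445, 454, 488 and 398 CPM in WT 1 to WT 4. Both KO libraries lay above the whole WT range, as they lay outside it on one side for 39.3% of all tested genes. The means were 669 ± 171 CPM in KO (SD, n = 2) and 446 ± 37.1 CPM in WT (SD, n = 4), a 1.48-fold higher level in KO (log2 fold change 0.57, SE 0.12, adjusted p = 0.0196, edgeR's quasi-likelihood test with Benjamini-Hochberg adjustment). Among all tested genes 30.5% had a larger change in size. The call was lost in fits that left out libraries, in which the log2 fold change was 0.36 without KO 1 (adjusted p = 0.191), 0.51 without WT 1 (0.0695), 0.56 without WT 3 (0.0723) and 0.55 without WT 3 and WT 4 together (0.0521). The direction was the same in all 17 alternative fits.

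Gimap5, whose loss in mice depletes T cells and NK cells, had the lowest fold change of the family. It had 145 and 110.0 CPM in KO 1 and KO 2, against 165, 153, 186 and 143 CPM in WT 1 to WT 4. The groups overlapped by a single pair, KO 1 lying just above WT 4. The means were 128 ± 25.1 CPM in KO and 162 ± 18.6 CPM in WT, and the log2 fold change of -0.35 (SE 0.11, 95% interval -0.60 to -0.10) did not pass the adjusted test (adjusted p = 0.0723, edgeR's quasi-likelihood test). DESeq2 and limma voom both called it lower, each with a log2 fold change of -0.35 (adjusted p = 0.0163 with DESeq2 and 0.0488 with limma voom).

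The Gimap3 to Gimap5 count ratio separated the genotypes more widely than either gene did. This ratio was singled out after the values were seen and is given without a test. There were 5.43 and 4.99 Gimap3 counts per Gimap5 count in KO 1 and KO 2, against 2.70, 2.97, 2.62 and 2.78 in WT 1 to WT 4. The mean ratios were 5.21 ± 0.31 in KO (SD, n = 2) and 2.77 ± 0.15 in WT (SD, n = 4), and the scatter that each gene showed between libraries of a group was smaller in the ratio. The uncertain division of reads within the pair touches this ratio directly. The sum of the pair does not depend on it if each such read was counted once, for 1 of the 2 genes, which is not known. The sum was 935 and 659 CPM in KO and 541 to 674 CPM in WT, so the groups overlapped in the sum. Against Gimap6 the ratio of Gimap3 was 1.42 and 1.61 in KO and 0.759 to 0.865 in WT, and the uncertain reads remain in its numerator. The ratios to all 7 other members lay above the WT range in both KO libraries, as did the ratios to 53.3% of the 12545 other tested genes with a level above 0 in every library. Gimap3 lay above that range on its own, so these ratios are not further observations.

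**Figure D2:**
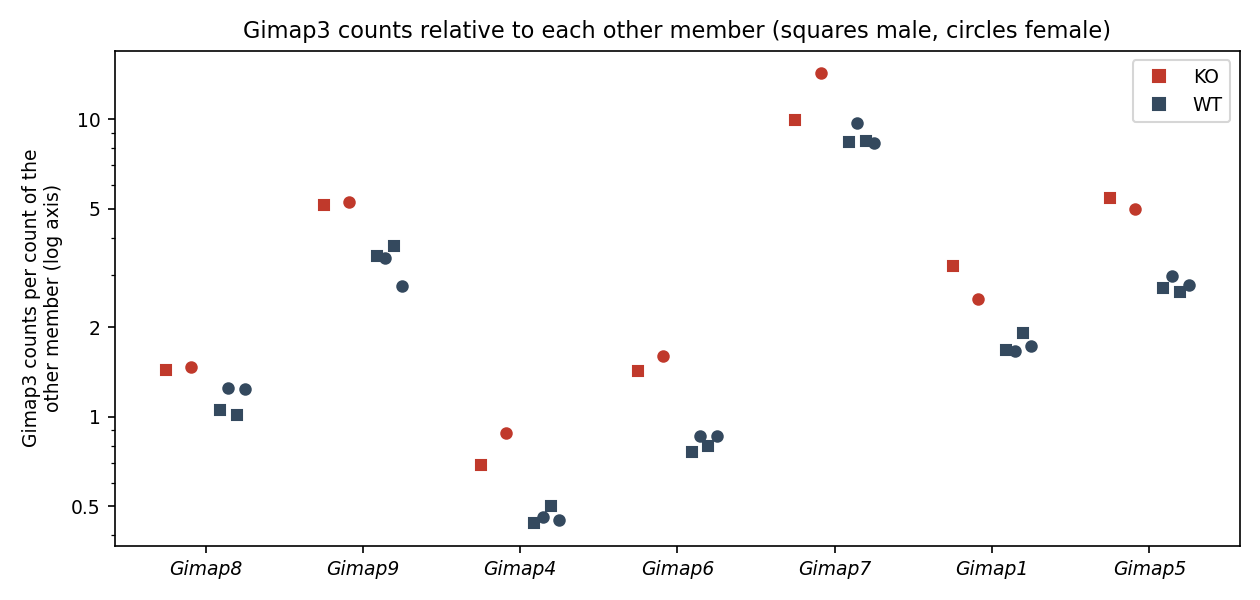
Gimap3 counts per count of each other GIMAP gene (vertical log axis) in the 2 KO libraries (red, left of each pair of groups) and the 4 WT libraries (dark blue, right), with squares for males and circles for females. For all 7 genes both KO points lie above all 4 WT points, with 5.43 and 4.99 in KO against 2.62 to 2.97 in WT for Gimap5.

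Gimap6 and Gimap1 had lower means in KO without passing the test. Gimap6, whose protein binds the autophagy protein Gabarapl2, had 555 and 342 CPM in KO 1 and KO 2, against 586, 524, 611 and 460.2 CPM in WT 1 to WT 4. KO 2 lay below all WT libraries and KO 1 within their range. Its log2 fold change was -0.31 (SE 0.12, 95% interval -0.59 to -0.03, adjusted p = 0.131, edgeR's quasi-likelihood test). Gimap1, which mice need for mature B and T cells, had 246 and 221 CPM in KO, against 266, 272, 255 and 231 CPM in WT. It was the steadiest of the 8 genes between the KO libraries, at a log2 fold change of -0.13 (SE 0.10, 95% interval -0.38 to 0.11, adjusted p = 0.442, same test). The antisense overlap named above applies to its counts.

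Gimap8, which carries several GTP-binding domains, had 548 and 372 CPM in KO 1 and KO 2, against 422, 362, 481 and 321 CPM in WT 1 to WT 4. The groups overlapped, and its log2 fold change was 0.20 (SE 0.10, 95% interval -0.04 to 0.44, adjusted p = 0.236, edgeR's quasi-likelihood test). The ratios of Gimap5 and Gimap6 to Gimap8, chosen after their values were seen, are given without a test. In 12 of the 28 pairs of members, among them all 7 with Gimap3, both KO ratios lay outside the WT range on one side. That share was not computed for pairs of other genes. There were 0.266 and 0.296 Gimap5 counts per Gimap8 count in KO and 0.388 to 0.446 in WT. The corresponding ratio of Gimap6 was 1.01 and 0.919 in KO and 1.27 to 1.45 in WT.

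In Gimap4, Gimap7 and Gimap9 the 2 KO mice lay on opposite sides of the WT range. The share of all tested genes with this pattern was not computed. Gimap4, which in mice hastens the death of T cells already committed to dying, had 1146 and 623 CPM in KO 1 and KO 2, against 1013, 983, 974 and 886 CPM in WT 1 to WT 4. Gimap7, whose human protein hydrolyses GTP when it pairs with another GIMAP molecule, had 79.8 and 38.5 CPM in KO, against 53.3, 46.7, 57.8 and 48.0 CPM in WT. Gimap9 had 153 and 104 CPM in KO, against 129, 132, 130.3 and 145 CPM in WT. In each of the 3 genes KO 1 was above and KO 2 below all 4 WT libraries, while the WT libraries stayed close together. The log2 fold changes over both KO libraries were therefore near 0 with wide intervals: -0.17 (-0.56 to 0.22) for Gimap4, 0.13 (-0.29 to 0.56) for Gimap7 and -0.07 (-0.43 to 0.29) for Gimap9. Their adjusted p-values were 0.547, 0.684 and 0.7995 by edgeR's quasi-likelihood test. Each of the 3 changed sign when 1 KO library was left out, and Gimap4 was then called lower on KO 2 alone (log2 fold change -0.59, adjusted p = 0.0343).

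All 8 genes were higher in KO 1, the male, than in KO 2, the female, by a ratio of 1.11 (Gimap1) to 2.07 (Gimap7), as were 47.6% of all tested genes by any ratio. Compared within sex, Gimap3 and Gimap8 lay above both WT libraries of the same sex in males and in females, a pattern found in 26.0% of all tested genes. Gimap1, Gimap5 and Gimap6 lay below both in each sex, as did 23.5% of all tested genes. The male difference of KO 1 from the WT mean was 0.76 for Gimap3 and 0.21 for Gimap4 on the log2 scale, and the female difference of KO 2 was 0.37 and -0.58. In the fit with a genotype by sex term, 3 members had an unadjusted p under 0.05, namely Gimap4 (-0.79 on the log2 scale, female minus male), Gimap7 (-0.82) and Gimap9 (-0.65). None was called after adjustment (adjusted p 0.344 to 0.416 for these 3, edgeR's quasi-likelihood test), and 0% of all tested genes were. The sex term itself was below 0, that is lower in females over both genotypes together, for all 8 members. Of them 5 had an unadjusted p under 0.05. This term takes in KO 1 against KO 2, where sex and animal cannot be told apart. In Gimap9 both WT females, with 132 and 145 CPM, lay above both WT males, with 129 and 130.3 CPM. The lowest unadjusted p was that of Gimap8 (log2 difference, female minus male, -0.45, adjusted p = 0.759 by the same test), and again 0 members and 0% of all genes were called. For neither term was the share of all tested genes with an unadjusted p under 0.05 computed.

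Past the Gimap3 end of the cluster, the nearest tested genes had larger fold changes than any member. Of 23 counted genes within 500000 bases of the cluster, 14 were tested and 4 called, 3 higher and 1 lower in KO, against 13.7% of all tested genes called, 8.13% higher and 5.58% lower. Tmem176b and Tmem176a, a pair of overlapping membrane protein genes that begin 62960 and 70632 bases past the Gimap3 end, were the tested neighbours on that side within 200000 bases. Tmem176b had 149 and 364 CPM in KO 1 and KO 2, against 40.4 to 60.2 CPM in WT, without overlap (log2 fold change 2.28, SE 0.28, adjusted p = 0.00291, edgeR's quasi-likelihood test). Tmem176a had 125 and 296 CPM in KO, against 24.7 to 46.3 CPM in WT, likewise without overlap (2.52, SE 0.32, adjusted p = 0.00318, same test). Both were higher in KO 2 than in KO 1, the reverse of the 8 GIMAP genes. They are also among the ILC2 and ILC3 markers, whose levels are given below.

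On the Gimap8 side, 6 genes were tested within 200000 bases. Lrrc61 had 23.8 and 32.7 CPM in KO, against 44.4 to 49.3 CPM in WT (log2 fold change -0.77, SE 0.13, adjusted p = 0.0108, edgeR's quasi-likelihood test), and was not called once KO 1 was left out (adjusted p = 0.0715). Sspo, which encodes a secreted glycoprotein, had 8.35 and 5.90 CPM in KO, against 2.02 to 3.35 CPM in WT (1.39, SE 0.35, adjusted p = 0.0397, same test). Leaving out WT 1, WT 2, WT 3, KO 1 or WT 3 and WT 4 together ended that call, with adjusted p of 0.0811 to 0.302. Zfp862-ps, Repin1, Zfp775 and AI854703, which lie between Sspo and the cluster, had log2 fold changes of -0.07, 0.16, 0.07 and -0.77 and were not called.

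**Figure D3:**
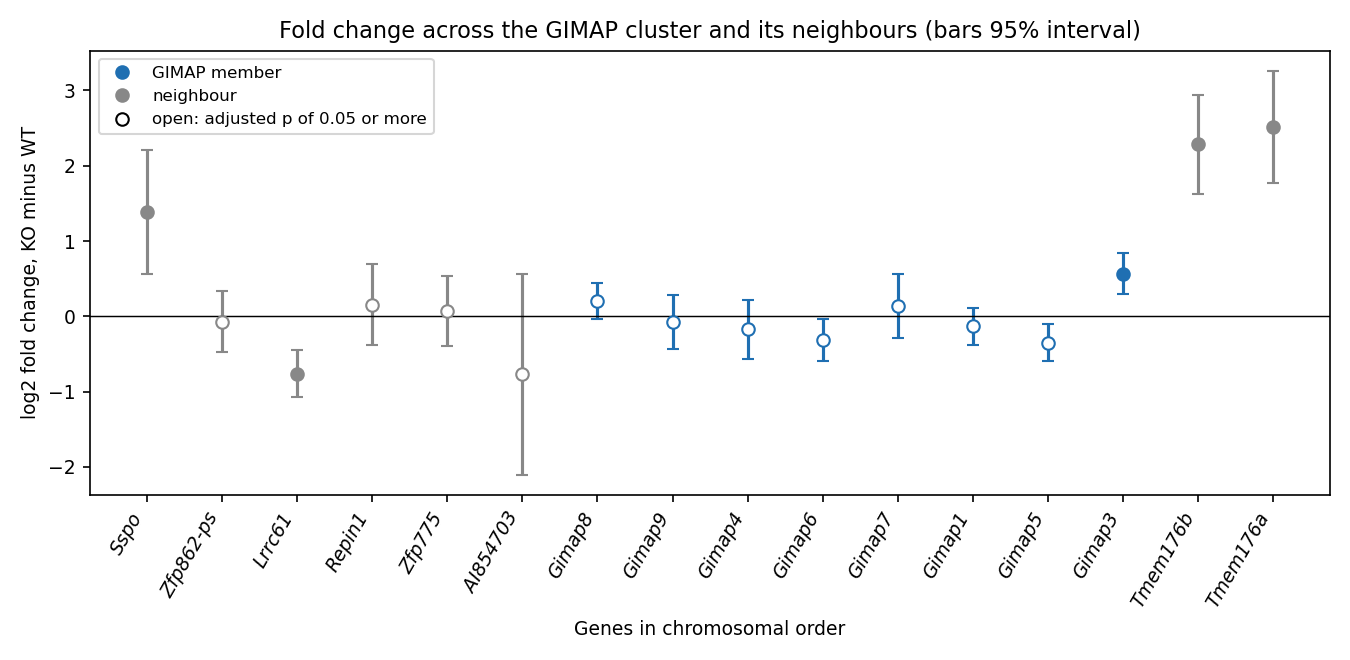
Log2 fold change, KO minus WT (vertical axis, bars for the 95% interval), of the 8 GIMAP genes (blue) and of the tested genes within 200000 bases on either side (grey), in chromosomal order and not to distance. Filled points had an adjusted p under 0.05: Gimap3 at 0.57 is the only filled member, while Tmem176b and Tmem176a beside it stand at 2.28 and 2.52.

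The genes that GIMAP proteins are known to work with were read from fixed lists. Beside the counts of calls in each list below, 13.7% of all tested genes were called, 8.13% higher and 5.58% lower. The protein of Gimap6 acts with the ATG8 proteins of autophagy. Of 29 autophagy genes, 1 was called higher, 3 lower and 25 neither, with a median log2 fold change of -0.10 (all genes 0.02). Gabarapl2, the binding partner, was read for that reason and had 39.5 and 33.0 CPM in KO and 35.9 to 37.4 CPM in WT (log2 fold change -0.02, adjusted p = 0.914, edgeR's quasi-likelihood test). Its close relative Gabarapl1 had 46.8 and 61.6 CPM in KO, against 19.6 to 26.3 CPM in WT, without overlap (1.29, SE 0.16, adjusted p = 0.00266, same test). Atg4d, a protease that processes ATG8 proteins, and Gabarap had log2 fold changes of -0.60 and -0.50, with calls that ended when WT 3, KO 1 or KO 2 was left out, and for Gabarap also WT 1. The count of lower calls in this list was 1 without WT 1, and 0 without WT 3, KO 1 or KO 2.

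Gimap5 acts on lysosomal calcium and on the AKT and GSK3 kinases in T cells. Of 20 AKT, GSK3 and FOXO genes, none was called higher and 2 were called lower, with a median log2 fold change of -0.04. Foxo1, a transcription factor of resting lymphocytes that AKT restrains, had 121 and 144 CPM in KO, against 211 to 318 CPM in WT, without overlap (-0.98, SE 0.14, adjusted p = 0.00493, edgeR's quasi-likelihood test). Akt2 was called at -0.38 (adjusted p = 0.0445, same test) and lost the call whichever library was left out (0.0632 to 0.202). The count of lower calls was 1 without WT 1, WT 2, WT 3 or KO 1. Of 15 lysosome and lysosomal calcium genes, 1 was called, with a median of -0.05. It was Tfeb, which encodes a regulator of lysosome genes, with 50.8 and 40.6 CPM in KO and 69.7 to 78.4 CPM in WT (-0.70, adjusted p = 0.0119, same test), and it lost the call without KO 2 (adjusted p = 0.0880).

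GIMAP proteins have been tied to the BCL2 family of cell death regulators. Of 15 tested BCL2 family genes, 2 were called higher and 1 lower, with a median log2 fold change of 0.05. Bcl2a1d, which encodes a survival factor, had 19.9 and 22.3 CPM in KO, against a mean of 6.01 ± 0.79 CPM in WT (1.81, SE 0.19, adjusted p = 0.00167, edgeR's quasi-likelihood test). Bbc3, the gene of the death inducer PUMA, had 22.3 and 26.7 CPM in KO, against 46.7 to 55.6 CPM in WT (-1.06, SE 0.11, adjusted p = 0.00146, same test). Bik, a low gene with 4.17 and 5.98 CPM in KO and 0.486 to 1.41 CPM in WT, was called at 2.42. In the fits that left out WT 1, WT 2, KO 1 or KO 2 its adjusted p was 0.0649 to 0.185, and the list then had 1 higher call. The most abundant survival genes, chosen after their values were seen, were not called: Bcl2 had a log2 fold change of 0.16 and Mcl1 of -0.18.

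GIMAP proteins help to keep resting lymphocytes alive, and genes of lymphocyte quiescence were read for that reason. Of these 20 genes, 8 were called lower, 1 higher and 11 neither, with a median log2 fold change of -0.56. Tob1, an antiproliferative gene, had 21.7 and 24.8 CPM in KO and 42.7 to 116 CPM in WT (-1.48, adjusted p = 0.0393, edgeR's quasi-likelihood test), a call that ended when WT 1, WT 3, KO 1 or KO 2 was left out. Slfn5, a Schlafen gene, was higher, with 163 and 172 CPM in KO and 43.6 to 82.6 CPM in WT (1.39, adjusted p = 0.00968, same test), a call lost without KO 1 or KO 2. Without KO 2 the count of lower calls was 5.

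Other GTPase families were read beside the GIMAP genes, and differences between families were not tested. Of 20 tested interferon-inducible GTPases, which act against intracellular pathogens, 11 were called higher and none lower, with a median log2 fold change of 0.88, and 7 were called without KO 1. Iigp1 had 37.9 and 75.1 CPM in KO, against 2.99 to 4.68 CPM in WT (3.80, SE 0.30, adjusted p = 5.18e-04, edgeR's quasi-likelihood test), and Gbp10 had 15.9 and 15.2 CPM in KO, against 2.10 to 2.96 CPM in WT (2.63, SE 0.23, adjusted p = 7.70e-04, same test). Mx2 was called at 1.99 and had an adjusted p of 0.0563 to 0.173 when WT 1, WT 2, WT 4, KO 1 or KO 2 was left out. Of 10 tested septins, the cytoskeletal GTPases that GIMAP proteins resemble in fold, 1 was called higher and 3 lower, with a median of -0.06. Septin8 had 52.2 and 83.8 CPM in KO, against a mean of 7.20 ± 1.32 CPM in WT (3.22, SE 0.16, adjusted p = 1.35e-04, same test). Septin6 had 320.2 and 309.8 CPM in KO and 411 to 456 CPM in WT (-0.49), and Septin4 had a log2 fold change of -1.81. Both calls ended without KO 2, when the count of lower septins was 0, that of Septin6 also without WT 1 or KO 1 and that of Septin4 without WT 3. That count was 1 without WT 1 or WT 3.

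**Figure D4:**
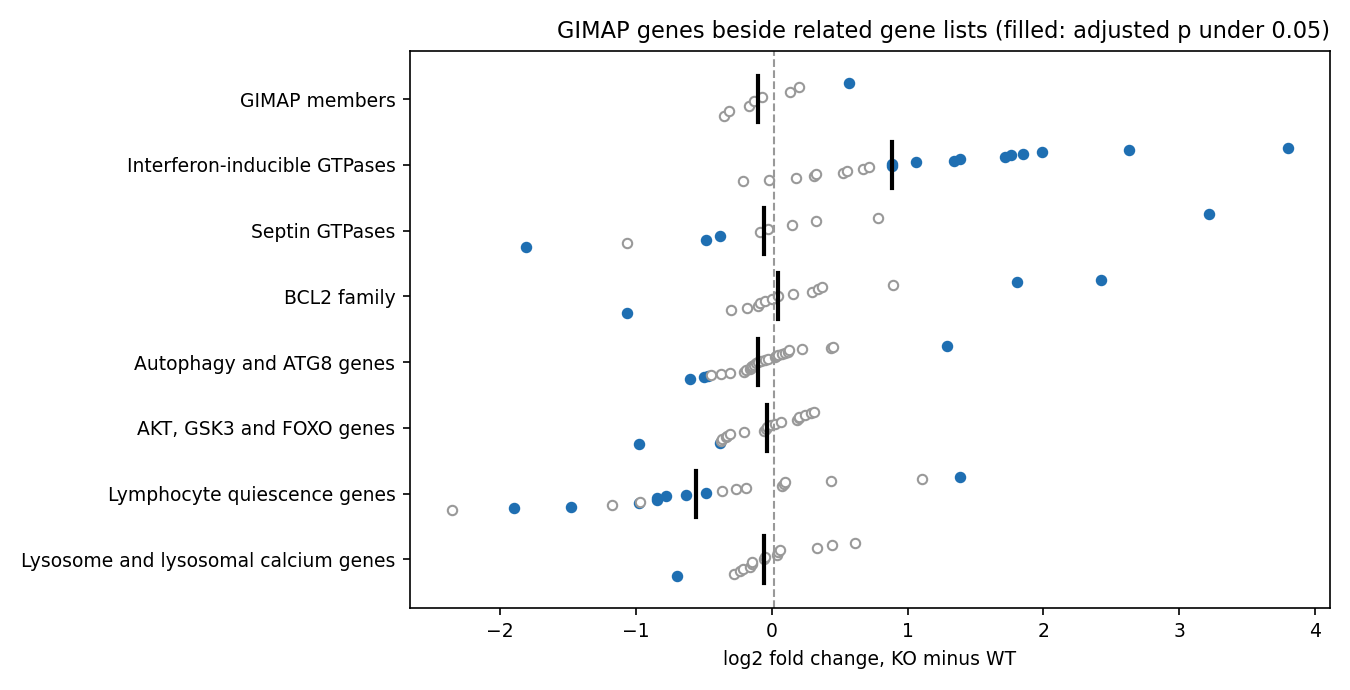
Log2 fold change, KO minus WT (horizontal axis), of the 8 GIMAP genes and of the genes in 7 related lists, with filled points for an adjusted p under 0.05, a thick bar for each list's median and a dashed line for the median of all tested genes (0.02). The GIMAP genes lie between -0.35 and 0.57 with 1 filled point, and 11 of the 20 interferon-inducible GTPases are filled, all above 0.

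T cells and B cells are rich in GIMAP transcripts, and the sort on absence of TCRbeta, CD3 and CD8 was made to leave T cells out. Of their marker genes some were called higher in KO and none lower. The 16 alpha-beta T cell markers averaged 5.77 and 6.32 on the log2(CPM + 1) scale in KO 1 and KO 2, against 3.70 to 5.09 in WT, and 7 were called higher (median log2 fold change 1.98, largest for Trac, Cd4 and Cd8a). The 8 gamma-delta T cell markers averaged 6.06 and 5.61 in KO, against 3.71 to 4.38 in WT, and 5 were called higher (median 1.94, largest for Blk, Sox13 and Trgc1). The 10 B cell markers averaged 4.90 and 3.37 in KO, against 1.87 to 2.35 in WT, and 7 were called higher (median 4.34, largest for Ms4a1, Pax5 and Fcmr). Of the defining markers, Cd3e had 131 and 82.3 CPM in KO and 18.1 to 74.9 CPM in WT, and Trac 405 and 636 CPM in KO and 16.8 to 39.2 CPM in WT. Trdc overlapped, with 283 and 135 CPM in KO and 109 to 207 CPM in WT. KO 1 lay above KO 2, as it did in the 8 GIMAP genes, in 7 of the 16 alpha-beta T cell, 7 of the 8 gamma-delta T cell, 9 of the 10 B cell and 12 of the 15 NK markers. The same held for 3 of the 11 myeloid, 3 of the 8 stromal and 1 of the 9 ILC2 and ILC3 markers tested, and for 47.6% of all tested genes. The part of these cell types in the GIMAP values was not tested.

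These counts of calls depended on single libraries, and among the markers named here Cd4, Cd8a, Sox13, Ms4a1, Pax5, Fcmr, C1qb, C1qa, Krt8, Krt5, Pdgfrb, Ccr6, Cd79a and Itga2 lost the call in at least 1 fit that left out a library. For alpha-beta T cells they were 4 without WT 1, 10 without WT 2, 3 without WT 3 and 3 without KO 1, and for B cells 3 without WT 1, 1 without WT 3 and 1 without KO 1. For gamma-delta T cells the count was 3 without KO 1. The 12 myeloid markers averaged 2.94 and 3.80 in KO and 0.135 to 2.00 in WT. Of the 11 tested, 4 were called higher (largest for Mpo, C1qb and C1qa), 7 without WT 4, 10 without WT 3 and WT 4 together and fewer without KO 2. The 12 stromal markers averaged 1.73 and 2.17 in KO and 0.841 to 1.10 in WT. Of the 8 tested, 5 were called higher (largest for Krt8, Krt5 and Pdgfrb), and fewer without KO 2. The 12 ILC2 and ILC3 markers averaged 3.23 and 3.88 in KO and 1.62 to 2.09 in WT. Of the 9 tested, 6 were called higher (among them Il1r1 and Ccr6), and fewer without KO 1 or KO 2. Cd79a and Csf1r were at 0 in 1 library each and Cdh5 in 3. The NK markers averaged 9.67 and 9.38 in KO and 9.78 to 9.82 in WT, with 1 of 15 called higher (Gzmb, 1.83) and 4 lower, among them Eomes (-2.11) and Itga2 (-1.07). Their lower count was 2 without KO 2.

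The mean profile of the 8 GIMAP genes over the 6 libraries was compared with that of every other gene at a mean of at least 2 log2 CPM. The 5 genes with the smallest root mean square distance, after centring each on its own mean, were Tbccd1 (0.03 log2 units), Herc4 (0.03), Cln3 (0.04), Erlec1 (0.04) and Dctn6 (0.05). The members themselves lay 0.12 (Gimap4) to 0.28 (Gimap3) log2 units from the mean profile of the family. Gimap3 was the member farthest from it.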

How the data were processed

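The deposited values were raw counts per Entrez gene for 6 libraries, with gene lengths in a column of their own. Per the submitters' processing notes, the authors used featureCounts and the mm10 build. The sources used here name no aligner and no versions. Per the labels' protocols, libraries were made with the SMART-Seq v4 kit and sequenced in paired-end mode. Amplified reads without molecular identifiers are not independent molecules, so floors cover counting error only. The 6 files of single libraries held the same counts as the joint table, which had 0 columns of other samples. No 2 replicates agreed within sampling noise, with a chi-square of 8.86 to 62.2 for each degree of freedom.

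Counts were fitted with edgeR 4.0.16 in R 4.3.3 (TMM scaling, filterByExpr defaults, glmQLFit, glmQLFTest, sex as an additive term), with Benjamini-Hochberg adjustment over 13652 genes and calls at an adjusted p under 0.05. The fit had 3 residual and 4.50 prior degrees of freedom. Scripts were tested on simulated data. Symbols came from RefSeq, GRCm38.p6 (25275 IDs matched). P-values set the difference between the genotypes against the spread between these mice, with the spread of the other tested genes weighed in. The members and lists were chosen with earlier results of these data known. The text names all members, Tcf7, up to 3 called genes per list with the largest change, tested neighbours within 200000 bases and the 5 genes of most like profile. Alternatives were other scalings and filters, no sex term, robust fitting, DESeq2 1.42.0, limma 3.58.1 voom, a replicate block and libraries left out. Some genes that this rule names are left out. Protein sequences were not analysed here.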

Additional observations from a re-analysis of the deposited data

How the results depend on the processing

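The 17 alternatives were 3 other scalings, 2 other filters, no sex term, robust fitting, DESeq2, limma voom, the replicate block, each library left out and WT 3 and WT 4 left out together. Gimap3 was called in 12 of them (log2 fold change 0.36 to 0.75, adjusted p 1.28e-04 to 0.191). The number of members called was 1 in the main fit, 2 with DESeq2 and with limma voom (1 of them lower), 0 without WT 3 and WT 4 and 0 to 1 with single libraries left out, and likewise 0 to 1 for higher and for lower calls. Signs reversed among the fits without 1 library for Gimap4 (-0.59 without KO 1, 0.20 without KO 2), Gimap7 (-0.31 without KO 1, 0.52 without KO 2) and Gimap9 (-0.42 without KO 1, 0.24 without KO 2), and for Gimap9 with library size scaling (0.011). The cause was not tested. With library size scaling 1336 of 1859 calls over all genes were higher, against 1110 of 1872. That scaling turned the medians of the AKT, septin and lysosome lists to 0.05, 0.03 and 0.03, left 1 lower call among the autophagy genes and gave 2 higher septins, as did DESeq2, which called 6 AKT, GSK3 and FOXO genes lower. Over all genes, DESeq2 called 2792 and the fits without 1 library 934 to 1908. Where 1 KO library was left out, the lone one was taken to vary as WT libraries do. Replicate numbers 1 and 2 are shared by the groups but no label ties them to a litter or day. Deviations from the group means correlated at 0.132 for number 1 and -0.0478 for number 2, so the numbers were not taken as pairs. With the replicate block 0 members were called (0 higher), Gimap3 at 0.55 with adjusted p = 0.0597, and 1341 genes in all. The lowest count of any member was 964, far above the floor of 3. Myeloid markers had 10 higher calls with the replicate block and with limma voom, against 4.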
